A study of Mus musculus with 9 samples.

Results

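The genes described here are the ATP-binding cassette (ABC) export pumps of the hepatocyte, 10 genes of the 19505 gene symbols on the array: *Abcb11*, *Abcb4*, *Abcc2*, *Abcg2*, *Abcb1a*, *Abcg5*, *Abcg8*, *Abcc3*, *Abcc4* and *Abcc6*. They were taken by symbol for what their proteins do, but earlier results of these data were known when they were chosen. Each had 1 transcript cluster, the set of probes read as 1 gene, among the 22206 on the array, so all 10 of 10 were measured.

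The study measured RNA of whole liver from male mice on 9 Clariom S mouse arrays, in 3 groups of 3 mice. Wild-type vehicle mice were C57BL/6JHamSlc-+/+, ob/ob vehicle mice were C57BL/6JHamSlc-ob/ob, and ob/ob extract mice were C57BL/6JHamSlc-ob/ob given an extract of the bean *Vigna umbellata* at 100 mg per kg body weight by oral gavage. All mice entered at 6 weeks of age, were acclimatised for 1 week, ate standard chow throughout and were treated for 42 days. No wild-type mice given the extract were analysed here, so the extract can be read only against an ob/ob background, in which functional leptin is missing from every tissue. The 3 comparisons among 3 groups are not independent, since any 2 of them share the 3 arrays of a group.

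ABC pumps spend ATP to move solutes out of the cell. At the canalicular membrane of the hepatocyte they make bile, by exporting bile salts, phospholipid, sterols and conjugated waste, and at the sinusoidal membrane others return conjugates and bile salts to the blood. Their genes are classic targets of nuclear receptors for bile acids, oxysterols and foreign compounds and of the stress factor NRF2, and sinusoidal pumps are known to be induced when bile flow is blocked.

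Values are log2 expression, on which a difference of 1 is a 2-fold change, and a call needs an adjusted p (limma, Benjamini-Hochberg over the whole array) under 0.05. In ob/ob vehicle against wild type 3 of the 10 pumps rose and none of the 10 fell: the phospholipid floppase gene *Abcb4* (2.74-fold), the breast cancer resistance protein gene *Abcg2* (5.16-fold) and the sinusoidal pump gene *Abcc4* (10.2-fold). In all, 2.96% of clusters were called in that comparison, 2.28% higher and 0.68% lower. Between ob/ob extract and wild type *Abcb4*, *Abcc4* and the P-glycoprotein gene *Abcb1a* rose, where 1.29% of clusters were called, 0.977% higher and 0.315% lower. Between ob/ob extract and ob/ob vehicle limma called 0 of the 10, beside 0.0% of clusters (1.62%, 48 higher and 312 lower, without the 2 arrays that stood apart), and 0 of the 10 had an unadjusted p under 0.05, beside 6.45% of clusters. The bile salt export pump gene *Abcb11*, the main driver of bile flow, and the sterol pump genes *Abcg5* and *Abcg8* were called in none of the 3 comparisons.

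**Figure D1:**
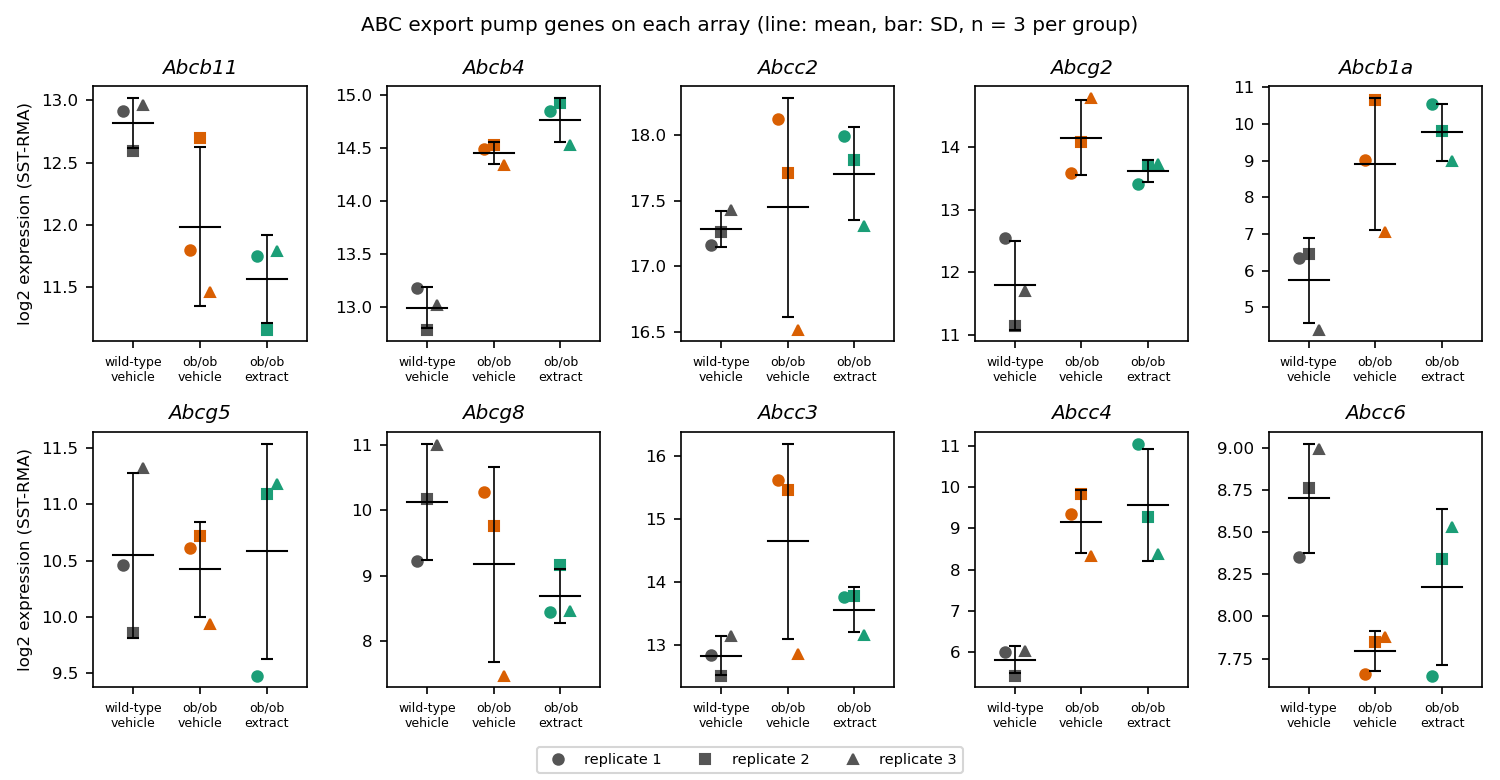
Log2 expression (vertical axis, scaled per gene) of the 10 pump genes on each of the 9 arrays, by group; points are arrays, marked by replicate number, the line is the group mean and the bar the SD (n = 3). For *Abcb4*, *Abcg2*, *Abcb1a* and *Abcc4* all 6 ob/ob arrays lie above all 3 wild-type arrays.

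Array medians lay between 5.07 and 5.36. Wild-type vehicle 3 and ob/ob vehicle 3 stood apart: they correlated with their own groups at 0.948 to 0.955, against 0.980 to 0.990 among the others, and had the narrowest interquartile ranges (3.01 and 3.26, against 3.36 to 3.85). Ob/ob vehicle 3 was the lowest array of its group for 8 of the 10 pumps, beside 36.9% of all clusters, and results that rest on either array are given without it. Liver identity was plain in the hepatocyte markers, of which 9 of 10 were measured. In limma 0 of the 9 were called in any comparison. An unadjusted p under 0.05 was found for 3 in ob/ob vehicle against wild type (17.0% of clusters) and 2 in extract against wild type (14.0%). It was found for 0 of these 9 markers in extract against ob/ob vehicle (6.45%). Their mean log2 level was 17.68 to 17.92 in wild type, 17.03 to 17.56 in ob/ob vehicle and 17.13 to 17.60 in ob/ob extract, so both ob/ob groups lay below wild type.

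The pumps are mainly hepatocyte genes, but *Abcb1a* and *Abcg2* are also made by endothelium and *Abcc3* by bile duct cells. In whole liver, fewer cells of a type and less RNA per cell cannot be told apart. The level of silent genes is the 97.5th percentile of 1091 olfactory receptor clusters on the same array. Of 8 measured bile duct markers, 6 in each vehicle group and 5 in the extract group were under it on every array of the group, among them *Krt19* and *Epcam* on all 9. Their summed log2 level was 34.79 to 36.06 in wild type, 33.77 to 34.62 in ob/ob vehicle and 34.46 to 36.50 in ob/ob extract, with 0 called. In ob/ob vehicle against wild type 6 of the 8 lay below 0 and 2 above (median −0.2). When ob/ob vehicle 3 was dropped, 1 was called there (*Sox9*, 1.01, adjusted p = 0.0490), beside 7.56% of clusters. The 10 endothelial markers summed to 74.73 to 77.48, 71.91 to 82.27 and 72.84 to 76.54, with 0 called. When ob/ob vehicle 3 was dropped, 2 of them rose in ob/ob vehicle, among them *Gpr182* by 1.36 (adjusted p = 0.0140), beside 7.56% of clusters called. The 11 macrophage markers summed to 69.61 to 77.08, 78.83 to 80.04 and 64.86 to 75.09, with 0 called. In ob/ob vehicle against wild type 2, 2 and 3 of these markers had an unadjusted p under 0.05, beside 17.0% of clusters, and in extract against ob/ob vehicle 0, 1 and 4 did, beside 6.45%. Those 4 macrophage markers, *Cd5l*, *Adgre1*, *C1qb* and *C1qc*, were all lower in extract. In that comparison 10 of the 11 macrophage markers lay below 0 and 1 above (median −0.74, beside −0.01 over all clusters). Of the 10 endothelial markers 9 lay below 0 and 1 above.

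Markers of other cells included 3 calls in ob/ob vehicle against wild type. Of 9 stellate cell markers, whose sums were 60.98 to 67.18 in wild type, 62.75 to 66.92 in ob/ob vehicle and 63.73 to 65.43 in extract, *Rgs5* rose by 1.93 (adjusted p = 0.0427). That call was lost with the replicate block (0.0582) and without wild-type vehicle 1, 2 or 3 (0.0510, 0.0834 and 0.113), extract 2 or 3 (0.0752 and 0.0622) or ob/ob vehicle 1 or 2 (0.156 and 0.121). Of 6 adipocyte markers 4 were under the level of silent genes on all arrays, *Adipoq*, *Plin1* and *Lep* among them, and the sums were 27.64 to 30.87, 34.45 to 35.48 and 33.59 to 37.35. The fatty acid binding protein gene *Fabp4* rose by 1.89 (adjusted p = 0.0235), lost without wild-type vehicle 2 (0.0767) or ob/ob vehicle 1 or 2 (0.0515 and 0.0773). The lipid droplet gene *Cidec* rose by 4.61 (0.0402), lost without wild-type vehicle 1, 2 or 3 (0.0812, 0.123 and 0.0972), extract 2 (0.0574) or ob/ob vehicle 1 or 2 (0.148 and 0.127). In extract against wild type limma called 0 stellate and 0 adipocyte markers. At an unadjusted p under 0.05 there were 5 and 3, beside 14.0% of clusters. Among these, *Rgs5*, *Dcn*, *Fabp4* and *Cidec* were higher in extract and *Col1a1* and *Plin1* lower. *Cidec* passed there with the replicate block (0.0265) and without ob/ob vehicle 3 (0.0205) or extract 3 (0.00345), and *Fabp4* without ob/ob vehicle 3 (0.0258). The part of other cell types in the pump values was not tested.

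Among the pumps that make bile, *Abcb11* encodes the bile salt export pump. It was at 12.91, 12.59 and 12.96 in wild-type vehicle 1 to 3, at 11.80, 12.70 and 11.46 in ob/ob vehicle, and at 11.75, 11.16 and 11.79 in ob/ob extract. Ob/ob vehicle 2 fell inside the wild-type range, while all 3 extract arrays lay below it. The difference was −0.83 (SE 0.34, 95% interval −1.58 to −0.08, limma adjusted p = 0.240) for ob/ob vehicle against wild type and −1.25 (SE 0.34, −2.0 to −0.50, adjusted p = 0.123) for ob/ob extract against wild type. Neither passed the threshold under any of the alternatives run.

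*Abcb11* is a textbook target of the bile acid receptor FXR, which binds an inverted repeat near its start. The RefSeq promoter table for GRCm38.p6 gives windows of 300 bases, 250 before and 50 from each start, and held 12 windows for 8 of the 10 pumps. *Abcc3* and *Abcc6* were not matched. The stretch of the *Abcb11* window around the repeat is shown because 29 of 32851 windows in the table (0.0883%) held the hexamer AGGNCA followed, after 1 base, by its inverted copy TGNCCT, and *Abcb11* was the only pump among them. Capitals mark the match, which starts 63 bases before the transcript start and contains a receptor hexamer, AGGTCA read on the other strand. It lies on the minus strand at chr2:69342617-69342716 and is written 5′ to 3′.
Abcb11: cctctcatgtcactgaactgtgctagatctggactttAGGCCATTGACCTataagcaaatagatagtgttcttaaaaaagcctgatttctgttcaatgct

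The FXR gene *Nr1h4* itself differed by −0.38 (adjusted p = 0.789) between ob/ob vehicle and wild type and by 0.59 (adjusted p = 0.674) between ob/ob extract and wild type. *Nr0b2*, the FXR-induced repressor SHP, differed by 0.18 (adjusted p = 0.921) and −0.33 (adjusted p = 0.847). Neither gene was called in these fits. With the interquartile range as a covariate *Nr1h4* was called lower in ob/ob vehicle (−1.60, adjusted p = 0.0137), beside 3.84% of clusters called.

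*Abcb4* encodes MDR3, also called Mdr2 in the mouse, which flips phosphatidylcholine into the canaliculus and so protects the duct lining from bile salts. It was at 13.18, 12.79 and 13.02 in wild type, at 14.49, 14.53 and 14.34 in ob/ob vehicle and at 14.85, 14.92 and 14.53 in ob/ob extract. The groups were 13.00 ± 0.20, 14.45 ± 0.10 and 14.77 ± 0.21 (SD, n = 3 each), and both ob/ob groups lay clear of wild type. The rise was 1.46 (SE 0.23, 95% interval 0.95 to 1.96, adjusted p = 0.0109) in ob/ob vehicle and 1.77 (SE 0.23, 1.26 to 2.28, 3.41-fold, adjusted p = 0.00508) in ob/ob extract. The second call held in all 19 alternative fits, with adjusted p between 0.00113 and 0.0396. The first was lost without wild-type vehicle 2 (adjusted p = 0.0604), ob/ob vehicle 1 (0.0516) or ob/ob vehicle 2 (0.0529), and after quantile normalization (1.04, adjusted p = 0.0522).

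*Abcc2* encodes MRP2, the canalicular pump for bilirubin and glutathione conjugates. Its values were 17.16, 17.26 and 17.43 in wild type, 18.12, 17.71 and 16.52 in ob/ob vehicle, and 17.99, 17.81 and 17.31 in ob/ob extract, so the groups overlapped in all 3 comparisons. The differences from wild type were 0.17 (SE 0.38, 95% interval −0.68 to 1.02, adjusted p = 0.876) and 0.42 (SE 0.38, adjusted p = 0.664). The sign for ob/ob vehicle turned after quantile normalization (−0.10) and when the interquartile range was a covariate (−0.24). Part of its promoter is shown because it holds an antioxidant response core, TGACNNNGC, and a receptor hexamer close together. Both are in capitals, on the plus strand at chr19:43782198-43782307.
Abcc2: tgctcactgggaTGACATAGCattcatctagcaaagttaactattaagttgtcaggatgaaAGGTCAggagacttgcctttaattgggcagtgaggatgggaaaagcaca

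*Abcg2* encodes a canalicular pump for urate, sulfate conjugates and many drugs. It was at 12.55, 11.13 and 11.70 in wild type, 13.59, 14.09 and 14.80 in ob/ob vehicle and 13.42, 13.72 and 13.74 in ob/ob extract. All 6 ob/ob arrays exceeded the highest wild-type array. The rise in ob/ob vehicle was 2.37 (SE 0.40, 95% interval 1.49 to 3.25, adjusted p = 0.0136), and the difference in ob/ob extract was 1.83 (SE 0.40, 0.95 to 2.71, adjusted p = 0.0573). The call in ob/ob vehicle was lost without ob/ob vehicle 2 (adjusted p = 0.0544), without wild-type vehicle 2 (0.0659) and with only the 2 groups in the fit (0.0629). The difference in ob/ob extract passed without wild-type vehicle 1 (0.0245) or ob/ob vehicle 3 (0.0210) and under 7 other settings. It was the only called pump in which ob/ob vehicle 3 was the highest of its group.

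*Abcb1a* encodes one of the mouse P-glycoproteins, which pump hydrophobic drugs. It was at 6.34, 6.46 and 4.39 in wild type, where wild-type vehicle 3 lay inside the range of silent genes. It was at 9.02, 10.66 and 7.06 in ob/ob vehicle and at 10.53, 9.80 and 8.98 in ob/ob extract. All 6 ob/ob arrays lay above all 3 wild-type arrays. The difference was 3.18 (SE 0.84, 95% interval 1.32 to 5.04, adjusted p = 0.0776) in ob/ob vehicle, not called, and 4.04 (SE 0.84, 2.18 to 5.90, 16.4-fold, adjusted p = 0.0490) in ob/ob extract, just under the threshold. The wild-type mean, 5.73, lay under the mean level of silent genes on those arrays, 5.975, so the fold size depends on that floor.

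Both *Abcb1a* results depend on the fit. In ob/ob vehicle the difference passed without ob/ob vehicle 3 (4.11, adjusted p = 0.00614), with the replicate number as a block (0.0118) and with limma's array weights (0.00468), among others. In ob/ob extract the call was lost without any single array of wild type or extract (adjusted p 0.0632 without wild-type vehicle 1, 0.122 without 2 and 0.158 without 3, and 0.176, 0.204 and 0.0994 without extract 1, 2 and 3) and without ob/ob vehicle 1 (0.0770). It was also lost after quantile normalization (0.0583), after median subtraction (0.0513) and when the interquartile range was a covariate (2.80, 0.0561). The direction was the same in all of these.

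The antioxidant response core was found in 4 of the 12 pump windows, of 3 pumps: *Abcc2*, *Abcb1a* and both windows of *Abcc4*. Of all windows 12.4% hold it. The stretches around the matches in the pumps whose level differed most from wild type are shown, with the match in capitals. The *Abcb1a* stretch is on the plus strand at chr5:8567107-8567135, after the transcript start, and the *Abcc4* stretches are on the minus strand at chr14:118706226-118706254 and chr14:118676936-118676964, before the start. The match reads on the other strand in *Abcb1a* and at the outer start of *Abcc4*.
Abcb1a: ctctttgtccGCGGAGTCAgacagaacaa
Abcc4 outer start: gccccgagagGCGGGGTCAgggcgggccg
Abcc4 inner start: aataatctcgTGACTCTGCcgtggtggat

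The other 3 motifs searched on both strands were more common in the table. The xenobiotic core GCGTG stood in 32.4% of all windows and in 5 of the 12 pump windows, of 5 pumps. For the GATA core GATAA it was 25.4% and 6 of 12, of 6 pumps, and for the GC box GGGCGG 35.7% and 4 of 12, of 3 pumps. The *Abcg5* and *Abcg8* windows that hold the GATA core overlap and share the same matches. The receptor hexamer AGGTCA stood in 16.3% of all windows and in 4 of the 12 pump windows, of 3 pumps, *Abcb11*, *Abcc2* and *Abcg2*. A match is only a run of letters in these windows.

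*Abcg5* and *Abcg8* encode the 2 subunits of a sterol pump that works only as a pair, and lie head to head on chromosome 17. *Abcg5* was at 10.46, 9.86 and 11.32 in wild type, at 10.61, 10.72 and 9.94 in ob/ob vehicle and at 9.48, 11.09 and 11.18 in ob/ob extract, with overlap in every comparison. *Abcg8* was at 9.22, 10.17 and 11.00 in wild type, at 10.28, 9.76 and 7.47 in ob/ob vehicle, and at 8.44, 9.16 and 8.45 in ob/ob extract, which lay wholly below wild type. The differences of *Abcg5* from wild type were −0.12 (SE 0.50, 95% interval −1.23 to 0.98, adjusted p = 0.935) and 0.04 (SE 0.50, adjusted p = 0.982), and those of *Abcg8* −0.96 (SE 0.67, −2.44 to 0.52, adjusted p = 0.520) and −1.45 (SE 0.67, −2.93 to 0.04, adjusted p = 0.368). None passed, and these intervals still allow changes of 2-fold in *Abcg5*.

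The level of *Abcg8* minus that of *Abcg5* on the same array was −1.24, 0.31 and −0.32 in wild type, −0.33, −0.96 and −2.47 in ob/ob vehicle, and −1.04, −1.93 and −2.73 in ob/ob extract. Only its change between groups can be read, since the 2 probe sets have their own scales. It differed from wild type by −0.84 in ob/ob vehicle (exact permutation test, two-sided p = 0.4) and by −1.48 in ob/ob extract (p = 0.2), where 3 arrays against 3 can reach 0.1 at the lowest. The 109 bases between the starts are shown because both genes share them, with the GATA core in capitals, read on the other strand, at chr17:84683012-84683120 on the plus strand.
Abcg5 to Abcg8: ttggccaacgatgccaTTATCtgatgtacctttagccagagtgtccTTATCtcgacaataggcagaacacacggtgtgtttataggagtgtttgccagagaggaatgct

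Of the sinusoidal pumps, *Abcc4* encodes MRP4, which returns bile salts with glutathione and cyclic nucleotides to the blood. Its values in wild type were 6.00, 5.43 and 6.02, and wild-type vehicle 2 and 3 lay inside the range of silent genes. It was at 9.34, 9.84 and 8.32 in ob/ob vehicle and at 11.06, 9.28 and 8.37 in ob/ob extract. The lowest ob/ob array was above the highest wild-type array. The rise was 3.35 (SE 0.61, 95% interval 2.00 to 4.70, adjusted p = 0.0191) in ob/ob vehicle and 3.75 (SE 0.61, 2.40 to 5.10, 13.5-fold, adjusted p = 0.0158) in ob/ob extract. Since the wild-type values are near the level of silent genes, the fold sizes depend on that floor.

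The first *Abcc4* call was lost without wild-type vehicle 2 (adjusted p = 0.0910) or 3 (0.0576), or ob/ob vehicle 1 (0.0816) or 2 (0.0822). The second was lost without wild-type vehicle 2 (0.0847) or ob/ob extract 2 (0.0771). *Abcb4* and *Abcc4* were the only pumps called in both comparisons with wild type.

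*Abcc3* encodes MRP3, a sinusoidal pump for glucuronides that is known to rise in cholestasis. It was at 12.84, 12.51 and 13.13 in wild type, at 15.62, 15.45 and 12.85 in ob/ob vehicle and at 13.75, 13.77 and 13.15 in ob/ob extract. Ob/ob vehicle 1 and 2 were above every other array, and ob/ob vehicle 3 lay in the wild-type range. The difference was 1.81 (SE 0.61, 95% interval 0.45 to 3.17, adjusted p = 0.155) with all arrays. Without ob/ob vehicle 3 it was 2.71 (adjusted p = 9.77e-04), with array weights 2.61 (0.00268) and without both arrays that stood apart 2.86 (3.88e-04). Extract against wild type it was 0.73 (SE 0.61, adjusted p = 0.630), although all 3 extract arrays were above all 3 wild-type arrays.

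*Abcc6* encodes MRP6, a pump of the sinusoidal membrane needed for ATP release and pyrophosphate in blood. It was at 8.35, 8.76 and 8.99 in wild type, 7.66, 7.85 and 7.88 in ob/ob vehicle and 7.65, 8.34 and 8.53 in ob/ob extract. All ob/ob vehicle arrays lay below wild type, but the difference of −0.90 (SE 0.29, 95% interval −1.54 to −0.26, adjusted p = 0.136) was not called, and that for extract was −0.53 (SE 0.29, adjusted p = 0.451).

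**Figure D2:**
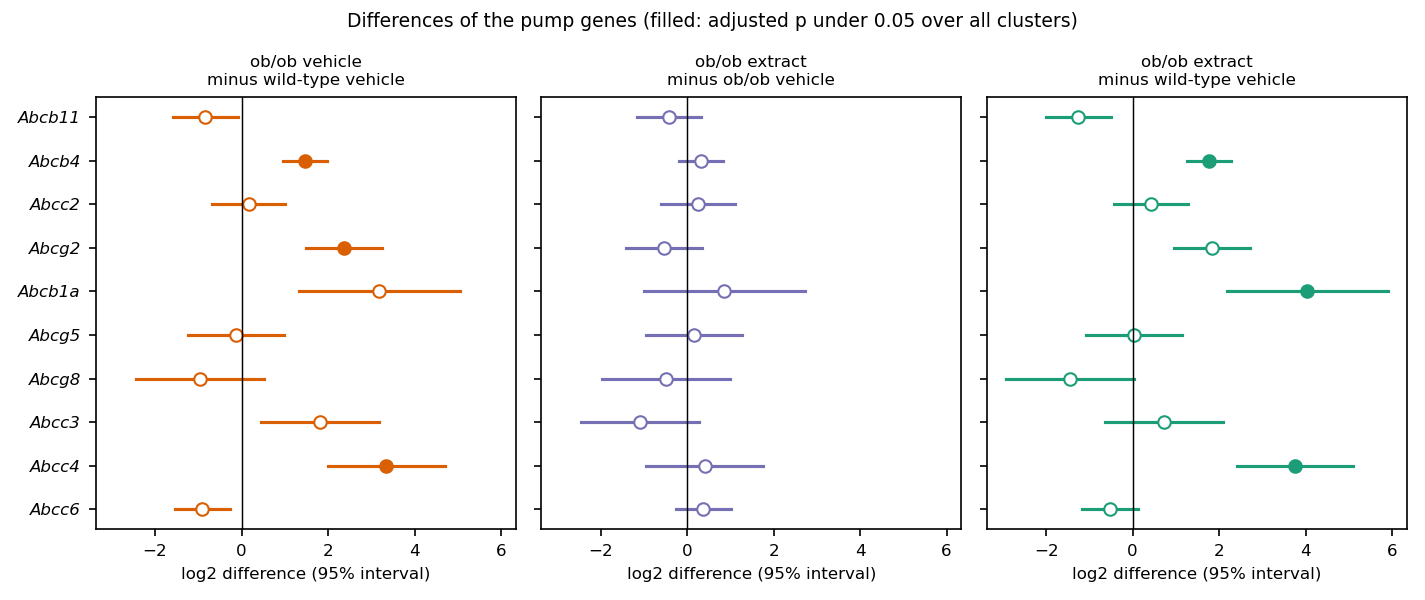
Log2 difference with 95% interval for each of the 10 pumps in the 3 comparisons (horizontal axis in log2 units), from limma over all 9 arrays; filled points passed an adjusted p under 0.05. Filled points are *Abcb4*, *Abcg2* and *Abcc4* for ob/ob vehicle and *Abcb4*, *Abcb1a* and *Abcc4* for ob/ob extract, both against wild type, and 0 points are filled for extract against ob/ob vehicle.

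The count of pumps that rose in ob/ob vehicle was 3 with all arrays, 0 without wild-type vehicle 2 or ob/ob vehicle 2, 1 without ob/ob vehicle 1, and 5 without ob/ob vehicle 3. The share of all clusters called moved with it, from 2.96% to 0.662%, 0.838%, 0.779% and 7.56% in that order. That in ob/ob extract was 3, and 1 without wild-type vehicle 2 or ob/ob extract 2, beside 1.29%, 0.437% and 0.347% of clusters. Across the 10 pumps the median difference was 0.81 for ob/ob vehicle against wild type, beside −0.06 over all clusters. Groups did not overlap for 4 pumps higher and 1 lower, beside 9.71% and 9.78% of all clusters. For ob/ob extract against wild type the median was 0.57 and groups did not overlap for 5 pumps higher and 2 lower, beside 11.1% and 10.6%. For *Abcb1a*, *Abcb4*, *Abcc4* and *Abcg2* all 6 ob/ob arrays exceeded all 3 wild-type arrays, beside 5.31% of clusters. By the criterion in the design text, a p under 0.05 before adjustment and a change of over 1.1-fold, 7 of 10 pumps differed between ob/ob vehicle and wild type, beside 17.0% of clusters, and 5 of 10 between ob/ob extract and wild type, beside 14.0%.

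**Figure D3:**
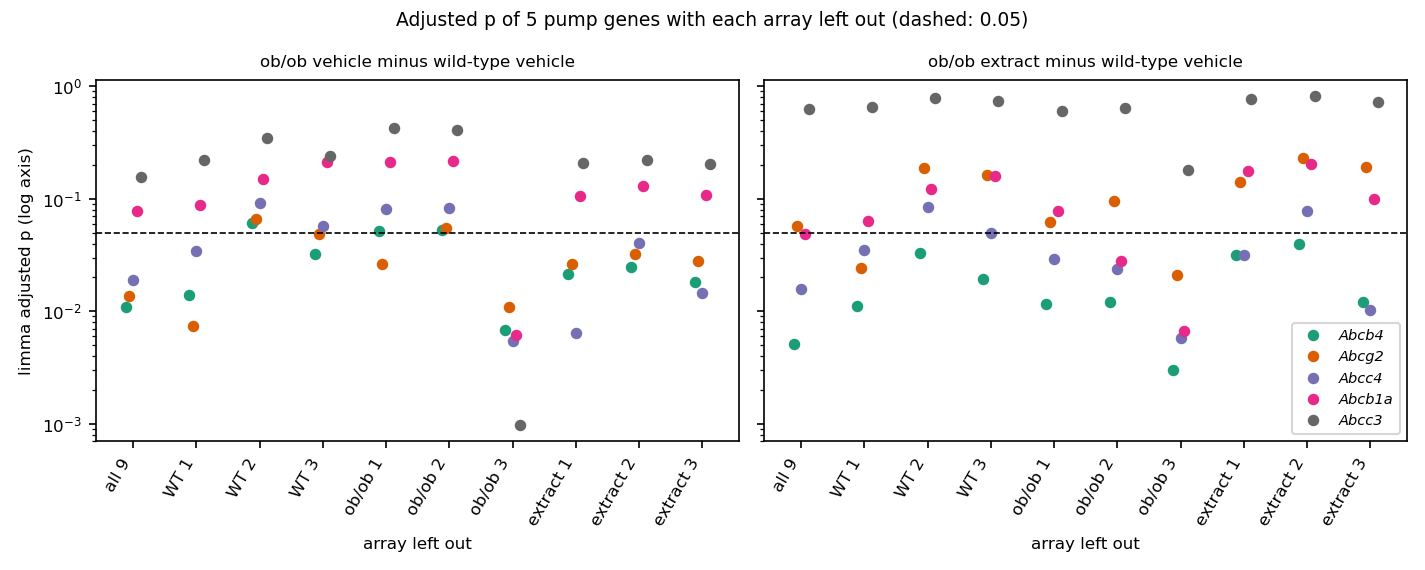
Adjusted p from limma (vertical log axis) of *Abcb4*, *Abcg2*, *Abcc4*, *Abcb1a* and *Abcc3* with all 9 arrays and with each array left out in turn (horizontal axis), for ob/ob vehicle (left) and ob/ob extract (right) against wild-type vehicle; the dashed line is the threshold of 0.05. In ob/ob vehicle all 5 genes lie under the line only without ob/ob vehicle 3, and on the right *Abcb4* lies under it throughout.

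The question of the extract is the comparison of ob/ob extract with ob/ob vehicle. All 10 pumps overlapped between these groups, where 13.6% of clusters did not. The widest differences were −1.08 for *Abcc3* (SE 0.61, 95% interval −2.44 to 0.28, adjusted p = 0.820) and 0.86 for *Abcb1a* (SE 0.84, −1.0 to 2.72, adjusted p = 0.881). The other 8 ran from −0.53 for *Abcg2* (SE 0.40, −1.41 to 0.35) to 0.40 for *Abcc4* (SE 0.61, −0.95 to 1.75), and for *Abcb4* it was 0.31 (SE 0.23, −0.19 to 0.82). A p that misses the threshold does not show that the extract left a pump alone, and these intervals are wide. Leaving out ob/ob vehicle 3 called 1 pump: *Abcc3* was then lower in extract, with a difference of −1.98 (adjusted p = 0.0325), beside 0.23% of clusters called, 0 higher and 51 lower. Without wild-type vehicle 3 as well it was −1.98 (0.00895), beside 1.62% of clusters.

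Genes known to share regulators with the pumps were read from lists. Of 16 measured NRF2 targets 6 rose and 0 fell in ob/ob vehicle against wild type (median 1.73) and 4 rose and 0 fell in ob/ob extract (median 1.32). Of all clusters 2.28% and 0.977% were called higher, and 0.68% and 0.315% lower. The glutathione transferase gene *Gsta2* rose by 3.92 (adjusted p = 0.00196) and 4.41 (0.00108), and the quinone reductase gene *Nqo1* by 3.49 (0.00326) and 4.26 (0.00121). *Gstm3* rose by 6.30 (0.00812, lost without wild-type vehicle 2 at 0.0532) and 4.81 (0.0390). Its second call was lost without wild-type vehicle 2 or 3, ob/ob vehicle 1 or 2, or extract 1 or 2. *Srxn1*, under the level of silent genes on all 3 wild-type arrays, rose by 4.25 (0.0254) and differed by 2.87 in extract (0.147). The *Srxn1* call was lost without wild-type vehicle 1, 2 or 3 or ob/ob vehicle 1 or 2. The first count moved with the share of all clusters called, given in brackets. It was 2 without wild-type vehicle 2 (0.662%) and 4 without wild-type vehicle 3 (1.18%) or ob/ob extract 2 (1.47%). It was 3 without ob/ob vehicle 1 (0.779%) or 2 (0.838%), and 9 without ob/ob vehicle 3 (7.56%). The second count was 2 without wild-type vehicle 2 (0.437%), ob/ob extract 1 (0.473%) or ob/ob extract 2 (0.347%). Without ob/ob vehicle 3 the second count was 6 of 16 (2.69%). The gene for NRF2 itself, *Nfe2l2*, was at 5.61, 4.67 and 5.18 in wild type, 7.82, 7.63 and 6.16 in ob/ob vehicle and 6.70, 6.88 and 6.56 in extract, under the level of silent genes on wild-type vehicle 2 and 3 and ob/ob vehicle 3.

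*Nfe2l2* rose by 2.05 in ob/ob vehicle (SE 0.42, adjusted p = 0.0320) and differed by 1.56 in extract (adjusted p = 0.123). Its call was lost without wild-type vehicle 2 (0.131) or 3 (0.0927), ob/ob vehicle 1 (0.125) or 2 (0.121), or ob/ob extract 1, 2 or 3 (0.0555, 0.0629 and 0.0572), and the extract value passed without ob/ob vehicle 3 (0.0146). In the fit of all arrays without a covariate, *Nfe2l2* was the only one of 14 measured receptors and factors called in ob/ob vehicle against wild type.

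Of 12 measured targets of the xenobiotic receptors CAR and PXR, 6 rose and 0 fell in each ob/ob group against wild type (medians 2.03 and 1.54). Of all clusters 2.28% and 0.977% were called higher. In ob/ob vehicle 10 of the 12 lay above 0 and 2 below, the lowest at −0.81. *Cyp3a11* differed there by 0.06 (adjusted p = 0.954), with group means near the highest value on the arrays, 19.93. The activity of CAR and PXR was not tested. *Cyp2b9*, a cytochrome P450 gene, rose by 11.81 (adjusted p = 5.51e-06) in ob/ob vehicle and 12.09 in extract. The estrogen sulfotransferase gene *Sult1e1* rose by 10.06 (7.66e-04) and 10.76. *Sult1e1* was under the level of silent genes on all 3 wild-type arrays, so its rise is a bound, at least 7.65 and 8.35 against that level, and *Cyp2b9* was under it on 2 of the 3. The first count was 4 without wild-type vehicle 2, beside 0.662% of clusters called. Of the receptor genes, the CAR gene *Nr1i3* differed by −0.93 (adjusted p = 0.393) and 0.56 (0.661). The PXR gene *Nr1i2* differed by 0.44 (0.484) in ob/ob vehicle and rose by 1.39 in extract (0.0495), a call lost without wild-type vehicle 1, 2 or 3 (0.0604, 0.171 and 0.143), ob/ob vehicle 1 (0.0803) or extract 1, 2 or 3 (0.152, 0.222 and 0.129). The *Nr1i2* call was also lost with the replicate block (0.0570).

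The liver X receptor gene *Nr1h3*, whose product drives *Abcg5* and *Abcg8*, differed by 1.00 (adjusted p = 0.247) and 0.41 (0.695) from wild type. Of 10 measured liver X receptor targets 1 rose in ob/ob vehicle, *Smpdl3a* by 1.44 (adjusted p = 0.0401, and 0.0594 with the replicate block). The count was 0 without any single array other than ob/ob vehicle 3. Without ob/ob vehicle 3 it was 3, beside 7.56% of clusters called. In ob/ob extract against wild type 0 passed with limma, and 1 had an unadjusted p under 0.05, beside 14.0% of clusters.

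Proteins that place pumps at the canaliculus and other exporters were read the same way. Of 14 measured scaffold and trafficking genes 0 passed with limma in any comparison, and 0 had an unadjusted p under 0.05. Without ob/ob vehicle 3, 1 rose and 1 fell in ob/ob vehicle against wild type, beside 7.56% of clusters called. In the list of 10 measured other exporters, the organic anion transporter gene *Slc22a7* fell by 2.48 in ob/ob vehicle (adjusted p = 0.00546) and by 2.43 in extract (0.00792, lost without ob/ob extract 2 at 0.0508). The direction of its transport was not tested, so its fall is not read as a loss of export. *Slc22a7* was under the level of silent genes on all 3 ob/ob vehicle and 2 of 3 extract arrays, and against that level the first fall is at least 1.79. Without ob/ob vehicle 3, 2 of the 10 rose in ob/ob vehicle, beside the same 7.56% of clusters.

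For bile acid synthesis and uptake, 2 of 17 measured genes rose and 3 fell in ob/ob vehicle, among them the uptake transporter *Slco1a1*, which fell by 11.15 (adjusted p = 2.94e-07, and by at least 10.29 against the level of silent genes, which all 3 ob/ob vehicle arrays were under), and *Cyp7b1*, an oxysterol hydroxylase, which fell by 6.47 (2.39e-05). In extract 1 rose and 2 fell. Of all clusters 2.28% were called higher and 0.68% lower in ob/ob vehicle, and 0.977% and 0.315% in extract. In ob/ob vehicle the 2 that rose passed in no fit without wild-type vehicle 2 or 3, ob/ob vehicle 1 or 2, or extract 2 or 3. When ob/ob vehicle 3 was dropped, 3 rose and 4 fell, beside 7.56% of clusters called. In extract, 0 rose without wild-type vehicle 2 or 3 or extract 2 or 3, and 4 fell without ob/ob vehicle 3 (2.69% of clusters called). Quantile normalization left 0 rising in ob/ob vehicle and 4 falling.

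Between ob/ob extract and ob/ob vehicle limma called 0 genes of these 7 lists. At an unadjusted p under 0.05, beside 6.45% of clusters, there were 2 NRF2 targets, 2 receptors and factors and 2 bile acid genes. The other 4 lists had 0. The NRF2 targets *Hmox1* (−1.38) and *Gclc* (−1.26) and the bile acid genes *Acox2* (−0.94) and *Hsd3b7* (−0.70) were lower in extract. Of the 16 NRF2 targets 11 lay below 0 and 5 above (median −0.64, beside −0.01 over all clusters). *Nr1i2* (0.95) and *Nr1i3* (1.49) were higher. With array weights 1 NRF2 target was called lower (0.477% of clusters called), and without both arrays that stood apart 2 were (1.62%).

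**Figure D4:**
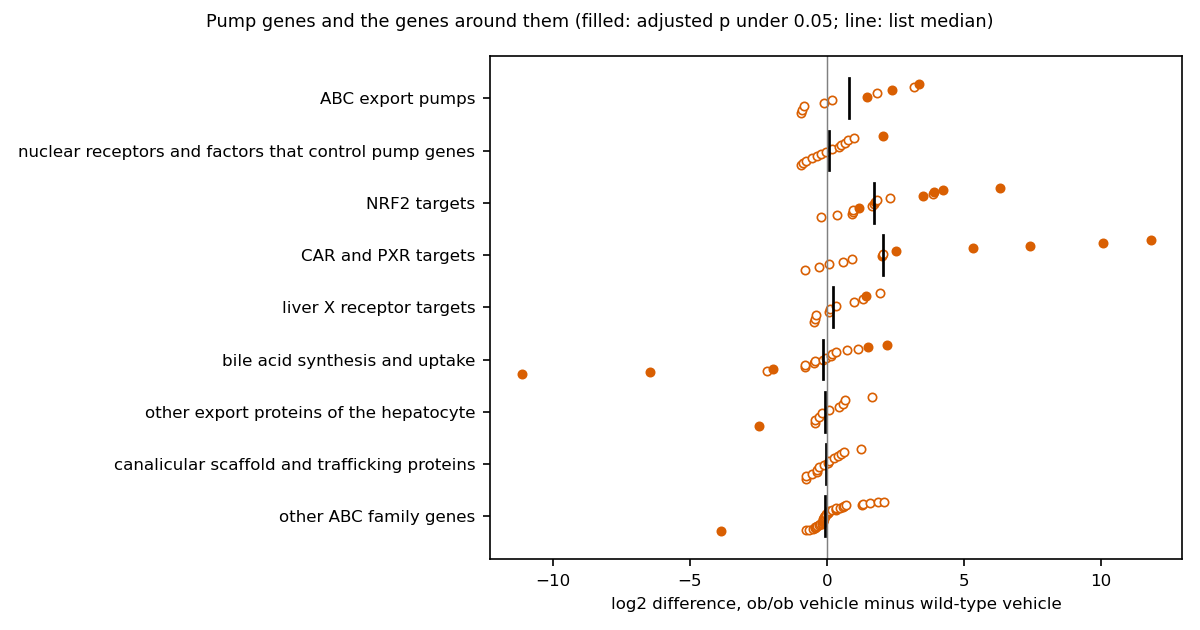
Log2 difference of ob/ob vehicle from wild-type vehicle (horizontal axis) for each measured gene of the pump family and of the lists around it; filled points passed an adjusted p under 0.05 and the vertical line is the list median. NRF2 targets and the targets of CAR and PXR hold 6 filled points above 0 each.

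The scale also bears on direction. The share of called clusters that were higher in ob/ob vehicle was 77.1% in the deposited values, 53.1% after quantile normalization and 83.5% after median subtraction, and median subtraction moved the median of all clusters from −0.06 to 0.06. The signs of all pumps other than *Abcc2* and *Abcg5* were the same under both scalings in the comparisons with wild type.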

How the data were processed

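Liver RNA of 9 mice, 3 per group per the labels, was hybridised to Clariom S arrays. The values are log2 expression as deposited by the authors. Per the design text they come from the SST-RMA step of Transcriptome Analysis Console 4.0.2. SST-RMA widens fold changes that plain RMA compresses, so sizes depend on it. No detection calls were used here. The number of arrays limits the precision.

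The members, gene lists and tests were chosen with earlier results of these data known. In limma 3.58.1 (R 4.3.3) 1 model of group means covered the 9 arrays and 22206 clusters (6 residual and 4.45 prior degrees of freedom), with Benjamini-Hochberg adjustment, and it was tested on simulated data. Named are the 10 pumps, of each list up to 4 genes past the threshold by p in each comparison (where none passed, up to 2 by unadjusted p), and 6 regulators (*Nr1h4*, *Nr0b2*, *Nr1i2*, *Nr1i3*, *Nr1h3*, *Nfe2l2*). Symbols came from GEO's platform annotation, which can be old. Promoter sequences are RefSeq's, build GRCm38.p6. No build is given for the array in the sources used here.

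Alternatives were 2 scalings, 2 filters on low clusters, 2 spread models, a covariate, fits of 2 groups, a replicate block and left-out arrays. Deviations of same-numbered arrays correlated at 0.256, 0.262 and 0.450 between wild-type and ob/ob vehicle, which meets the rule for pairs, though arrays 1 and 2 crossed gave 0.218 and 0.260. The reported fits have no block, and the blocked value stands beside a result where it changed the call. For the extract the correlations were 0.0157 at most, and the numbers do not pair.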

Additional observations from a re-analysis of the deposited data

How the results depend on the processing

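Of 570 member values under alternatives, 498 kept their direction and side of the threshold, 23 lost a call, 19 gained one and 30 changed sign. Pumps called in ob/ob vehicle against wild type numbered 3, and 5 with array weights (9.62% of all clusters called, against 2.96%), 5 without both arrays that stood apart (7.86%), 7 by the design text's criterion and 0 to 5 with each array left out. For extract against ob/ob vehicle they were 0, then 1 without both arrays (1.62% of clusters) and 0 to 1. For extract against wild type they were 3, then 5 by the design text's criterion and 1 to 4. With the replicate block 4, 0 and 3 were called, the fourth being *Abcb1a* in ob/ob vehicle, and the block changed no other call of a pump.

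Signs turned only in differences that were not called. In ob/ob vehicle against wild type *Abcc2* was −0.10 after quantile normalization and −0.24 when the interquartile range was a covariate (−0.17 to 0.63 with each array left out). *Abcg5* was 0.34 with array weights and 0.51 without both arrays (−0.47 to 0.26), and *Abcg8* was 0.33 without both. In extract against ob/ob vehicle, array weights and the loss of both arrays gave −0.17 and −0.07 for *Abcb1a* (−0.07 to 1.73), −0.059 and −0.21 for *Abcc2* (−0.21 to 0.59), and −0.16 and −0.02 for *Abcc4* (−0.34 to 1.00). *Abcg5* was −0.082 without both (−0.14 to 0.71), and *Abcg8* ran from −1.34 to 0.068 with each array left out. In extract against wild type *Abcc3* was −0.0049 with the covariate, and *Abcg5* was −0.31 after quantile normalization and −0.11 with the covariate (−0.31 to 0.59). The causes were not tested. Each pump had 1 cluster, so no second cluster could be tried.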

Other observations

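Of 41 measured ABC genes outside the 10 pumps, 0 rose and 1 fell in ob/ob vehicle against wild type (median −0.07). *Abca8a*, a lipid transporter of the ABCA group, was at 9.39, 9.32 and 10.43 in wild type, 5.82, 6.86 and 4.87 in ob/ob vehicle and 4.65, 5.56 and 6.71 in ob/ob extract, under the level of silent genes on ob/ob vehicle 3 and extract 1. It fell by 3.86 in ob/ob vehicle (limma adjusted p = 0.00948) and fell by 4.07 in extract (0.00996, lost without ob/ob extract 2 at 0.0671). Without ob/ob vehicle 3, 5 of the 41 rose in ob/ob vehicle, beside 7.56% of clusters called, 1350 higher and 329 lower.

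*Abcb1b*, the other mouse P-glycoprotein gene, was at 4.16, 3.42 and 3.46 in wild type, where all 3 arrays lay inside the range of silent genes. It was at 5.15, 6.92 and 5.23 in ob/ob vehicle and at 6.63, 6.50 and 5.33 in extract. Ob/ob vehicle 1 and 3 were also under the level of silent genes, so the size of the ob/ob vehicle difference depends on that floor. The difference from wild type was 2.09 in ob/ob vehicle (adjusted p = 0.0573, and 0.0478 with the replicate block, 0.0249 without ob/ob vehicle 3) and the rise 2.47 in extract (0.0459), at least 0.18 against the level of silent genes. That call was lost without wild-type vehicle 1, 2 or 3 (0.0517, 0.171 and 0.145), ob/ob vehicle 1 (0.0566) or ob/ob extract 1 or 2 (0.171 and 0.217). Against ob/ob vehicle, the extract group had 0 of the 41 called with limma and 3 at an unadjusted p under 0.05, beside 6.45% of clusters.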
